A study of Mus musculus with 25 samples.

Results

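Fox, Sox and T-box proteins are 3 families of DNA-binding regulators that set cell identity during development and keep it in adult tissue. In the mouse mammary fat pad, a mixture of adipocytes, stroma, vessels, immune cells and epithelial ducts, DNA methylation was measured at the genes of these families. The assay was reduced representation bisulfite sequencing (RRBS), a method that sequences bisulfite-treated fragments cut at MspI sites and so samples mostly CpG-dense DNA. Genes were taken by symbol, as Fox followed by a letter and a number, Sox and a number or Tbx and a number, on the autosomes. This gave 56 genes of the 15522 genes with a CpG at an average coverage of 10 reads or more, namely 31 Fox, 17 Sox and 8 T-box genes.

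Per the labels, all mice were wild-type C57BL/6N. Control mice (n = 5) ate the diet D12450J. The others became obese on the 60% high-fat diet D12492 and then stayed obese or lost weight on 1 of 4 diets: an unrestricted low-fat diet (LFD, n = 3 used here), a low-fat diet cut to give 30% fewer calories (LFCR, n = 4), a Mediterranean-style diet restricted by the same 30% (MCR, n = 3) or intermittent calorie restriction (ICR, n = 5). Every mouse, Control included, received E0771 mammary cancer cells in the 4th fat pad 25 weeks after the start, and the tissue is the 9th, contralateral pad, removed at endpoint. The labels also carry the cell line name and a cancer cell type, against their own tissue entry, and these files hold no expression values by which the tissue could be checked. Mouse ages were not given in the sources used here. A weight-loss diet cannot be told apart from the obesity that came before it, and a level in bulk tissue cannot tell a change within cells from a change in which cells were present. Mice are separate animals, 1 library each.

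Of 25 libraries, 3 of the 4 Obese libraries and 1 of the 4 LFD libraries stood apart, and groups were compared over the other 21, which leave the Obese group with a single mouse and no test. The mean level over all CpGs measured in every one of the 21 libraries was 54.1% to 58.3% in Control, 48.3% to 54.6% in LFD, 46.5% to 54.5% in LFCR, 46.5% to 47.2% in MCR and 50.8% to 54.8% in ICR, so the MCR libraries as a whole lay below the Control libraries. How much of each gene's difference follows this common shift was not tested. The same holds where the MCR mice of a gene do not overlap Control. The share of all regions with such a separation was not counted. All comparisons with Control share the same 5 Control mice.

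Fox proteins bind DNA through a forkhead domain, Sox proteins through an HMG box that bends DNA, and T-box proteins through the domain that names them. In many tissues their genes sit in CpG-rich stretches that are kept unmethylated and marked by Polycomb proteins where the gene is silent, and methylation across such stretches is known to change with age, tissue and disease. Tbx3 is needed for the mammary placode, Sox9 and Sox10 mark mammary stem and progenitor states, and the FoxO proteins carry insulin signals to the nucleus.

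The 56 genes held 1748 CpGs with an average coverage of 10 reads or more. Their median coverage was 41.9 reads (quartiles 23.2 and 74.6), against 32.1 over all such CpGs, and libraries had a value at 55.3% to 99.6% of them. The table gives fractions without read counts per library, so the depth behind a single value is unknown. In the authors' annotation 630 of the CpGs lay in promoter features, 585 of them in a 1st exon, with 959 in gene bodies, 115 in 3'UTRs and 44 between genes. CpG islands held 39.2% of these CpGs and 20.1% of all CpGs at that coverage. A region level, the mean over at least 3 CpGs, was obtained for 33 promoters and 26 bodies, which cover 45 genes, 14 of them with both. The other 11 (Foxi1, Foxi3, Foxj3, Foxk2, Foxn2, Sox5, Sox6, Sox15, Sox17, Sox30 and Tbx6) had too few CpGs with a value in enough mice. "Promoter" here means these annotated features, and 25 of the 33 promoters consist of 1st exon CpGs alone. Such a region can be long. The Sox12 CpGs span chr2:152393625-152395883 and the Foxc2 CpGs chr8:121116236-121118134, and 0 CpGs of either gene were annotated to Body. A promoter level here is therefore not the level at the start of the gene alone.

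The sites are set by the cutting enzyme. RefSeq promoter sequences (GRCm38.p6, the assembly of mm10; 250 bases before to 50 after the start) were at hand for 35 of the 56 genes, in 44 windows. These held a median of 21 CpGs, against 7 over all 32851 windows of the table. The MspI site CCGG, which reads the same on both strands, lay in 79.5% of the 44 windows and in 52.8% of all windows. The measured CpGs closest to the starts of Foxa3, Foxd3, Foxf2 and Sox13 are shown because these genes have both an unmethylated start and, elsewhere, CpGs that changed. The capitals mark the MspI site with the measured CpG, and each run reads 5′ to 3′ on the gene's strand, from chr7:19023514-19023543 (minus), chr4:99656332-99656348 (plus), chr13:31625828-31625857 (plus), chr1:133424214-133424243 (minus) and chr1:133424316-133424345 (minus).
Foxa3: gccagcgggactcCCGGgctgtgtgcctca
Foxd3: cgtggagaaacctCCGG
Foxf2: cgcaaggagccggCCGGaggctcggaagag
Sox13, site at 133424228: agcgcactgcccgCCGGcctggcgggcgca
Sox13, site at 133424330: agctccggagcggCCGGcggaggtcgaagg
At these 5 CpGs the mean Control level was 0.504% ± 0.760 (SD, n = 5) at Foxa3, 1.15% ± 1.43 (n = 4) at Foxd3, 0.370% ± 0.828 (n = 5) at Foxf2, and 1.91% ± 2.06 and 0.501% ± 0.686 (n = 5 each) at the Sox13 sites. MCR means there lay between 0% and 0.606% (n = 3), and no difference from Control was called at any of the 5. Levels near 0% in Control cannot fall, so only a gain could have been seen at them. Another measured CpG in these windows, at chr4:119539697 in the Foxj3 5'UTR, is not in an MspI site. It was at 0.575% ± 0.995 (n = 3) in Control and 7.82% ± 10.7 (n = 3) in MCR, and was not called (limma adjusted p = 0.192).

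In Control mice the 3 families were less methylated than the average gene. The median Control level was 10.0% over the 33 promoters, against 24.4% over all 2792 promoters measured, and 42.5% over the 26 bodies, against 66.8% over all 5556 bodies. A level under 10% was found at 16 of the 33 promoters, against 34.2% of all promoters. The lowest promoters were Foxk1 (0.0664% ± 0.132, SD, n = 5), Sox4 (0.476% ± 0.117, n = 4), Tbx15 and Foxj2. The highest were Foxm1, a regulator of mitotic genes, at 90.2% ± 2.77 (n = 5), Foxn4 at 78.1% ± 7.43 (n = 5) and Foxs1 at 77.8% ± 4.78 (n = 5). The Foxn4 1st exon CpGs (chr5:114262782-114262863) lie within the span of its body CpGs (chr5:114256725-114273670). Those of Foxm1 (chr6:128365744-128366083) lie close to its body CpGs (chr6:128365074-128365134). Whether either region is the main start of its gene was not tested. Among bodies the level ran from 2.86% ± 2.10 (n = 4) at Foxp1 to 89.1% ± 4.66 (n = 5) at Foxp2.

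The comparison of MCR with Control asks how the diet group that lost weight on a Mediterranean-style restriction differed from mice on the control diet. With MCR the bodies of the T-box genes Tbx3, Tbx5 and Tbx2 gained methylation. Of the Fox regions, 2 of 18 promoters were called higher and 11 lower, and 2 of 15 bodies higher and 8 lower. Of the Sox regions, 0 were called higher, and 4 of 9 promoters and 3 of 5 bodies were called lower. The call here is limma's adjusted p under 0.05 (Benjamini-Hochberg over all promoters or all bodies), and by it 3 of the 33 promoters were higher and 16 lower, against 4.26% and 43.2% of all 2792 promoters. Of the 26 bodies 5 were higher and 12 lower, against 4.19% and 61% of all 5556 bodies. The median difference was -4.05 percentage points over the 33 promoters and -3.78 over all promoters, and -4.70 over the 26 bodies and -7.58 over all bodies. Of the 1051 single CpGs tested in these genes 118 were higher and 255 lower, against 4.54% and 32.8% of all 129217 CpGs. The shares called lower at promoters are near the background. With all 25 libraries in the fit, 26 promoters and 22 bodies of these genes had values enough to test. Of these, 3 promoters and 6 bodies were called in either direction, among 363 promoters and 1694 bodies called in the whole table. The 6 bodies were those of Tbx3, Tbx5, Foxa3, Foxj1, Foxn1 and Foxp4, and the 3 promoters include Foxm1 and Sox12. The other MCR calls at regions described here were lost or could not be fitted in that setting. It adds only Obese and LFD libraries, so the MCR and Control mice stay the same. The CpGs used, which then also need values in Obese mice, and the variance shared by the groups both change. Which of these moved a call was not tested.

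**Figure D1:**
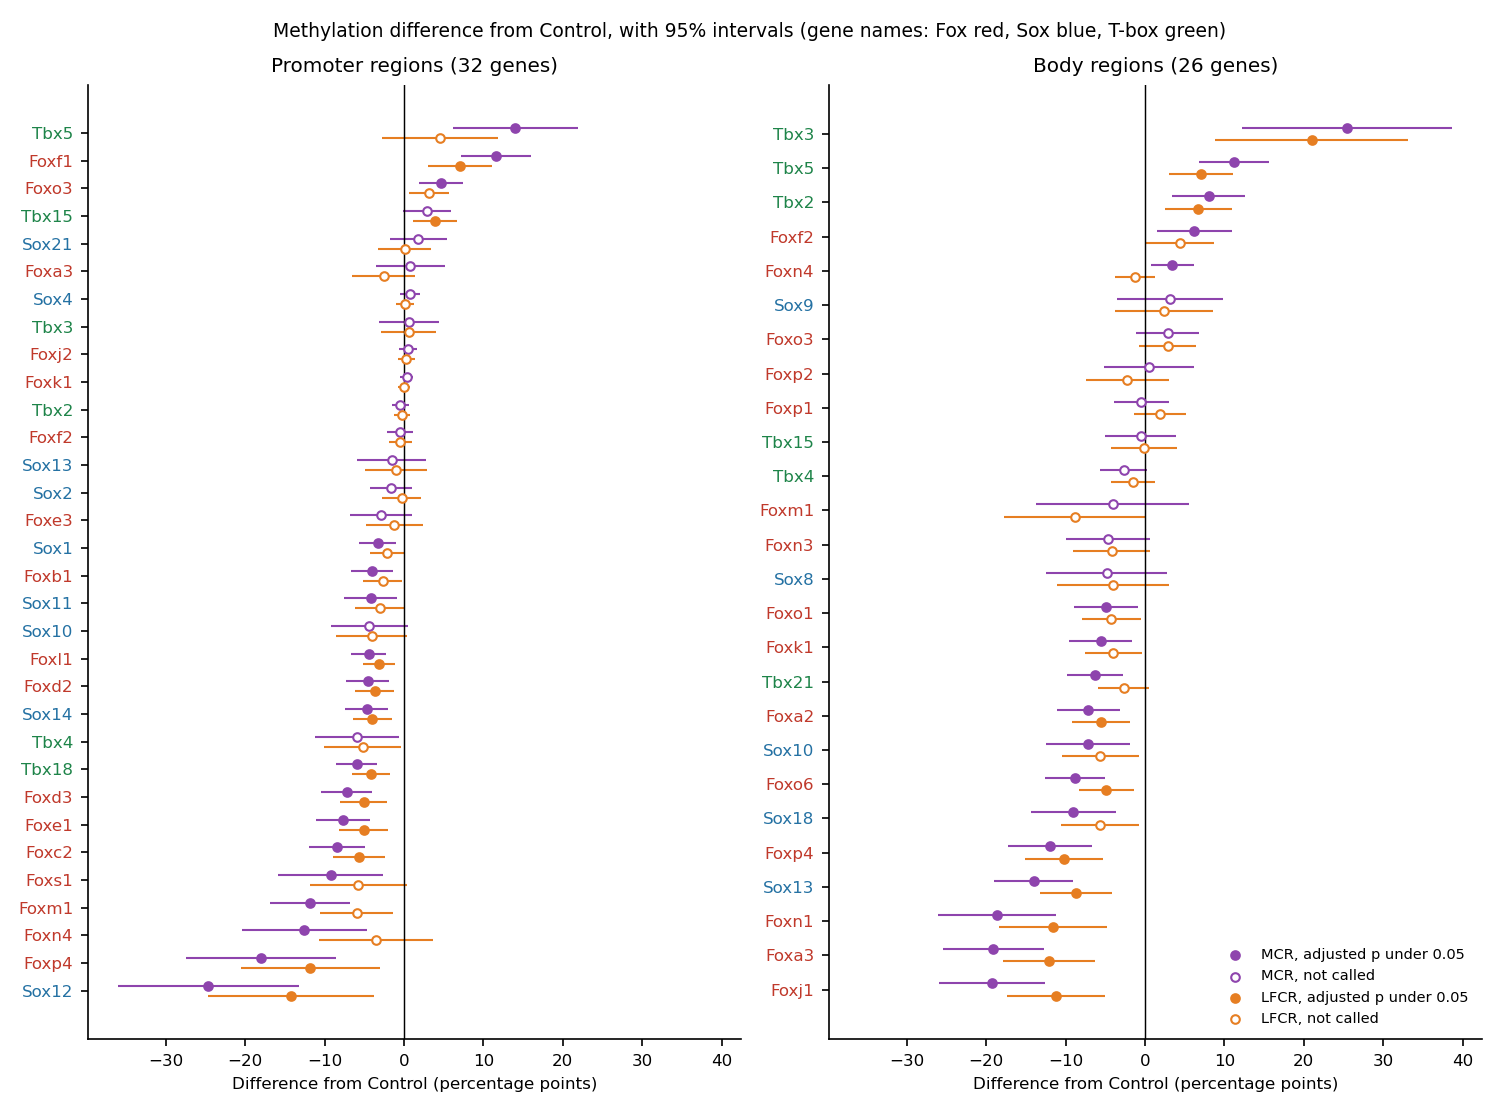
Difference of MCR (purple) and LFCR (orange) from Control in percentage points, with 95% intervals, for 32 of the 33 promoter and all 26 body regions of Fox (red names), Sox (blue) and T-box (green) genes; filled points were called at an adjusted p under 0.05. The bodies of Tbx3, Tbx5 and Tbx2 stand at the top with called gains in both diets, and most called regions lie left of 0.

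Among the T-box genes the largest gain was in the body of Tbx3, a repressor that maintains progenitor cells and is required for mammary gland formation. The region holds 56 CpGs between chr5:119674170 and 119681099 (mm10), 82.1% of them in CpG islands, with a median coverage of 119 reads. Control mice had 19.0%, 18.3%, 25.9%, 33.2% and 18.04% (mean 22.9% ± 6.60, SD, n = 5). MCR mice had 40.7%, 54.5% and 49.8% (48.3% ± 7.06, n = 3), so each lay above every Control mouse. The difference was 25.5 points (95% interval 12.2 to 38.7; adjusted p = 0.00239), rank 17 from the top among all 5556 bodies. With all 25 libraries in the fit it was 28.9 points (adjusted p = 0.00354).

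LFCR mice had 60.8%, 53.7%, 31.6% and 29.5% at the Tbx3 body (43.9% ± 15.7, n = 4). A pair of them lay far above Control and the other pair lay within its range. Their difference from Control, 20.99 points (8.82 to 33.2), was called at an adjusted p of 0.0136, and the call was lost without LFCR mouse 63 or LFCR mouse 67. LFD mice had 43.3%, 28.4% and 26.6%, and ICR mice 36.2%, 44.6%, 33.0%, 37.4% and 31.5%. Neither group was called, and in both the range overlapped that of Control. The single Obese mouse had 27.9%.

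Within Tbx3 the gain ran along the whole measured body. The mean was higher with MCR at all 56 body CpGs, with 39 called higher and 0 lower. Of the 7 measured CpGs of its 1st exon 0 were called higher and 1 lower, and that region stayed at 7.32% ± 1.27 (n = 5) in Control and 7.98% ± 5.59 (n = 3) in MCR. The gap between body and 1st exon level, taken within each mouse, widened by 24.8 points with MCR (SE 5.76; adjusted p = 0.00223 over 1737 genes with both regions). This gap changed in 50.1% of those genes. The CpG of largest gain in the gene, at chr5:119680779, rose from 20.9% ± 8.33 (n = 5) to 61.0% ± 14.5 (n = 3).

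**Figure D2:**
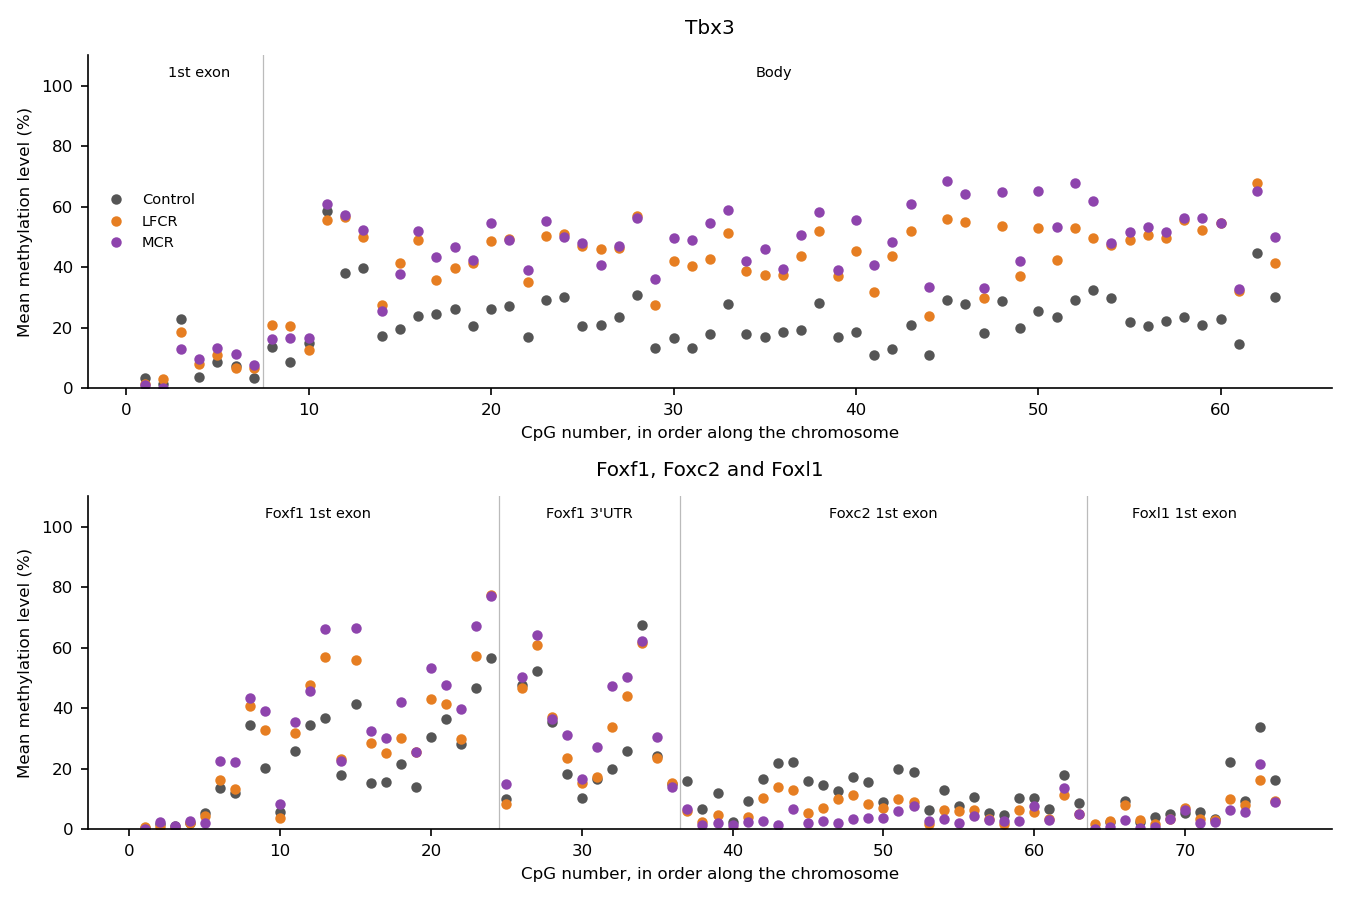
Mean methylation level (%) of each measured CpG in Control (grey), LFCR (orange) and MCR (purple), in order along the chromosome, for Tbx3 (top) and for the neighbours Foxf1, Foxc2 and Foxl1 (bottom); grey lines divide annotated features. In Tbx3 the MCR points lie above Control at all 56 body CpGs and at 4 of the 7 CpGs of the 1st exon, and in the lower panel they lie above Control at most Foxf1 CpGs and below it at the Foxc2 CpGs.

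Tbx5, a regulator of heart and forelimb development, lies on the same chromosome, with its first measured CpG 152 kb from the last of Tbx3. Its body (55 CpGs, chr5:119835299-119845201) had 13.9%, 13.2%, 17.5%, 14.8% and 15.04% in Control mice (14.9% ± 1.64, n = 5). MCR mice had 25.3%, 27.9% and 25.0%, again all above every Control mouse. The body gained 11.2 points with MCR (6.77 to 15.6; adjusted p = 0.000497), with 24 of its 55 CpGs called higher and 0 lower.

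The Tbx5 body also rose in LFCR, by 7.06 points (3.02 to 11.1; adjusted p = 0.0132), where mice had 25.5%, 26.7%, 18.9% and 16.7%. The lowest of these lay within the Control range, and the call was lost without LFCR mouse 63 or 67. The Tbx5 promoter region holds 4 CpGs upstream of the start, all with a higher mean in MCR, and 1 in the 5'UTR with a lower one. As a region it rose with MCR by 14.0 points (6.15 to 21.9; adjusted p = 0.00613), from 17.98% ± 3.23 (n = 4) to 32.0% ± 8.14 (n = 3). The gap between its 2 regions did not change detectably (-3.09 points, SE 3.32, adjusted p = 0.464).

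Tbx2, the closest relative of Tbx3 and also a repressor, had 15.4%, 13.7%, 18.2%, 20.7% and 14.2% over its body in Control (41 CpGs, chr11:85833757-85841004). MCR mice had 22.0%, 25.6% and 25.9%, above every Control mouse. The gain was 8.05 points with MCR (3.47 to 12.6; adjusted p = 0.00421) and 6.74 points with LFCR (2.53 to 10.9; adjusted p = 0.0169), the latter lost without LFCR mouse 63 or 67. The MCR call was also lost with all 25 libraries (4.51 points, adjusted p = 0.660). Its 1st exon was at 1.13% ± 0.252 (n = 5) in Control and 0.675% ± 0.522 (n = 3) in MCR. The gap between the 2 regions widened by 8.50 points (SE 2.37; adjusted p = 0.00697).

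The gain did not extend to every T-box gene. Tbx4, the hindlimb counterpart of Tbx5, begins 44.6 kb from the last measured CpG of Tbx2. Its body (35 CpGs) was at 37.6% ± 1.49 (n = 5) in Control and 34.9% ± 1.39 (n = 3) in MCR, with an interval of -5.71 to 0.314 points, and its promoter was not called either. The body of Tbx21, which encodes the T-bet factor of type 1 lymphocytes, fell by 6.32 points with MCR (-9.83 to -2.81; adjusted p = 0.00362), a call lost with all 25 libraries (-1.92 points, adjusted p = 0.717). The 1st exon of Tbx18, an epicardial and mesenchymal factor, fell by 5.97 points (-8.54 to -3.41; adjusted p = 0.00131), from 8.66%, 3.74%, 8.21% and 8.89% in Control to 1.75%, 0% and 2.45%. This call was lost with all 25 libraries (adjusted p = 0.604). Tbx18 had 17 promoter and 2 body CpGs at an average coverage of 10 reads or more, and 17 of its CpGs are also annotated to D030062O11Rik.

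Tbx15, a factor of fat depot identity and skeletal patterning, was the one T-box promoter called higher with LFCR (3.93 points, 1.13 to 6.74; adjusted p = 0.0409) and not with MCR (2.86 points, -0.169 to 5.89). The direct comparison of MCR with LFCR called no region, so the diets are not shown to differ here. This promoter rests on 3 CpGs shared with Gm43120. Its levels, built from CpG means and each mouse's deviations, fell just below 0 in 1 Control mouse, and its call was lost without any 1 of Control mouse 2 and LFCR mice 63, 67 and 72.

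**Figure D3:**
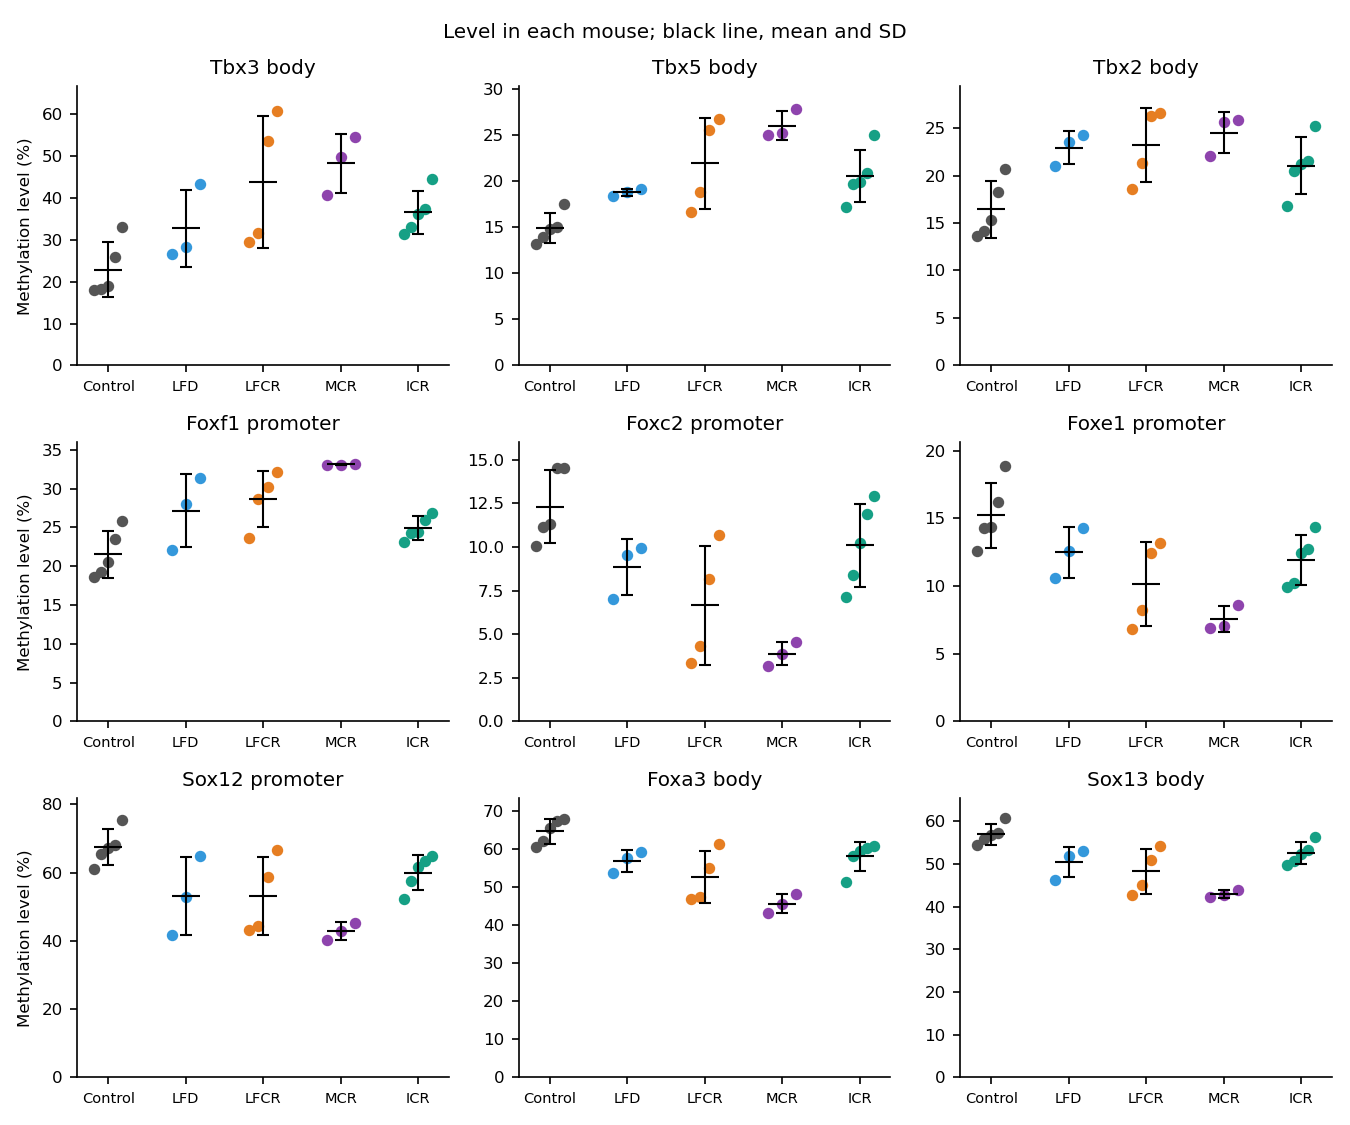
Methylation level (%) in each mouse by diet group, with the group mean and SD in black, at 9 regions named in the text. At the bodies of Tbx3, Tbx5 and Tbx2 and at the Foxf1 promoter all 3 MCR mice lie above the 5 Control mice, and at the other 5 regions below them; LFCR mice fall in a high and a low pair in several panels.

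Among the Fox genes of mesenchyme and vessels, 3 neighbours on chromosome 8 moved in opposite directions. Foxf1, which patterns lung and gut mesenchyme, gained methylation over its 1st exon (24 CpGs, chr8:121084521-121085360). Control mice had 19.2%, 18.7%, 23.5%, 25.9% and 20.5%, and MCR mice had 33.2%, 33.0% and 33.1%, so the groups did not overlap. The gain was 11.6 points (7.16 to 15.96; adjusted p = 0.000899), with 15 of 24 CpGs called higher and 0 lower, and 4 of its 12 3'UTR CpGs were called higher as well. LFCR mice had 32.1%, 30.2%, 28.6% and 23.7% and gained 7.11 points (3.07 to 11.2; adjusted p = 0.0199).

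The next gene of the 3 families, 28.8 kb on, is Foxc2, a regulator of lymphatic vessels and fat metabolism. Its 1st exon (27 CpGs, chr8:121116236-121118134) went from 14.5%, 14.5%, 11.3%, 10.1% and 11.2% in Control to 3.89%, 3.20% and 4.53% in MCR. It fell by 8.44 points (-12.0 to -4.93; adjusted p = 0.00108), and fell by 5.67 points with LFCR (adjusted p = 0.0199). After a further 9.95 kb lies Foxl1, a marker of gut subepithelial cells, whose 1st exon (13 CpGs) fell by 4.43 points (-6.63 to -2.23; adjusted p = 0.00274), from 8.81% to 9.63% across Control mice to 4.10%, 3.78% and 6.20%. All measured CpGs of the 3 genes are also annotated to Gm20388. The LFCR calls at Foxf1 and Foxc2 were lost without Control mouse 2, LFCR mouse 63 or LFCR mouse 67. With all 25 libraries the MCR differences at Foxf1 (8.67 points) and Foxc2 (-6.55 points) kept their direction with adjusted p-values of 0.230 and 0.868.

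Foxf2, the paralogue of Foxf1, resembled Tbx3 in form. Its 1st exon was at 4.54% ± 1.11 (n = 5) in Control and 4.03% ± 1.01 (n = 3) in MCR, while its body (8 CpGs, chr13:31629036-31629811) went from 7.36%, 11.1%, 10.9% and 12.0% to 13.4%, 12.9% and 23.4%. The body gain, 6.22 points (1.53 to 10.9; adjusted p = 0.0217), was lost without Control mouse 2 or MCR mouse 96 and was 2.79 points at the lowest when 1 mouse was left out. Foxs1, expressed in vessel-wall cells, fell by 9.20 points over its 1st exon (adjusted p = 0.0229), a call lost without Control mouse 2, MCR mouse 95 or MCR mouse 96.

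The thyroid factor Foxe1 (30 CpGs, all shared with Gm12446) and the neural crest factor Foxd3 (19 CpGs) each lost part of a low level over the 1st exon with MCR. Foxe1 had 18.9%, 16.2%, 14.3%, 12.6% and 14.3% in Control against 6.89%, 7.08% and 8.64% in MCR, and fell by 7.70 points (adjusted p = 0.00133). Foxd3 had 17.1%, 13.2%, 11.1%, 10.5% and 9.48% against 5.32%, 3.56% and 6.30%, and fell by 7.24 points (adjusted p = 0.00155). In both genes no MCR mouse overlapped Control, but with all 25 libraries both calls were lost (adjusted p = 0.426 for Foxe1 and 0.944 for Foxd3). With MCR the 1st exon of Foxd2 fell by 4.55 points and Foxb1 fell by 4.05 points, both called. Foxe3, 16.5 kb from Foxd2, was not called (-2.87 points, -6.75 to 1.00). Of the 8 Foxb1 CpGs 0 were called singly.

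The Foxa factors open chromatin for hormone receptors and in liver. In this family Foxa3 lost methylation over its body (36 CpGs, chr7:19014324-19023329), with 67.5%, 68.0%, 62.0%, 60.6% and 65.5% in Control mice and 43.1%, 45.6% and 48.2% in MCR mice. It fell by 19.1 points (-25.4 to -12.8; adjusted p = 0.000415), with 28 of 36 CpGs called lower and 0 higher. LFCR mice had 46.9%, 47.4%, 55.0% and 61.4%, a fall of 12.0 points (adjusted p = 0.0112; lost without LFCR mouse 63 or 67). Its 3 CpGs of the 1st exon, which include the site shown above, were at 8.13% ± 1.84 (n = 5) and 8.94% ± 5.00 (n = 3), and the gap between the regions narrowed (-19.9 points, SE 2.65, adjusted p = 0.000515). The CpG-island body of Foxa2 fell by 7.13 points with MCR (adjusted p = 0.00376, and 0.467 with all 25 libraries).

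Losses of like size were found at Foxj1, the master factor of motile cilia, and at Foxn1, the factor of thymic and skin epithelium. The Foxj1 body (6 CpGs) went from 74.4%, 78.8%, 72.7%, 70.7% and 72.2% to 54.0%, 51.5% and 58.1%, and fell by 19.2 points (-25.9 to -12.6; adjusted p = 0.000415). The Foxn1 body (25 CpGs) went from 76.3%, 83.6%, 74.8%, 74.7% and 76.0% to 54.9%, 59.7% and 60.6%, and fell by 18.7 points (-26.1 to -11.2; adjusted p = 0.000516). Neither MCR group overlapped Control, and both were also called with LFCR, where Foxj1 fell by 11.2 points and Foxn1 fell by 11.6 points. These LFCR calls were lost without LFCR mouse 63 or 67.

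Foxn4, a factor of retinal and spinal interneurons, changed in both directions within 1 gene. Of its 21 body CpGs 6 were called higher and 5 lower with MCR. The CpG at chr5:114269297 rose from 24.8% ± 7.53 (n = 5) to 73.0% ± 0.959 (n = 3), the largest called gain of any CpG in these genes (48.2 points, SE 8.36; adjusted p = 0.00110). The body mean rose by 3.43 points (adjusted p = 0.0273), a call lost without any 1 of 4 mice (Control 2 and 5, MCR 95 and 96) and on the arcsine scale. The mean difference became -4.01 points with all 25 libraries and -1.76 points with all CpGs whatever the number of mice. Its 3 CpGs of the 1st exon fell by 12.6 points (adjusted p = 0.0112), lost without MCR mouse 96. Foxm1 fell by 11.8 points over its 1st exon, from 90.2% (adjusted p = 0.00123).

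The FoxO genes, targets of insulin and Akt signalling, were few and did not move together. The Foxo6 body (20 CpGs) fell by 8.78 points with MCR (-12.6 to -5.004; adjusted p = 0.000732), from 46.2% to 50.2% across Control mice to 40.8%, 35.7% and 39.3%. It was -6.32 points and not called with all 25 libraries (adjusted p = 0.473). The Foxo1 body (6 CpGs) went from 13.8%, 7.46%, 6.85% and 6.27% to 2.41%, 3.10% and 5.43%. Its fall of 4.95 points (adjusted p = 0.0310) was lost without Control mouse 2, MCR mouse 85 or MCR mouse 95 and on the arcsine scale. Foxo3 was called higher at its promoter features by 4.66 points (adjusted p = 0.00859), but these 8 CpGs span chr10:42197770-42276627 and are not 1 site. That call was lost without MCR mouse 95 or 96 and with all CpGs whatever the number of mice (1.77 points, adjusted p = 0.237).

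In the FoxP and FoxK families, regulators of lung, immune and metabolic programmes, Foxp4 lost the most. Its promoter features (6 CpGs over chr17:47904427-47924424, partly shared with Gm15556) had 46.8%, 59.8%, 47.7%, 42.1% and 48.0% in Control and 30.7%, 28.6% and 33.3% in MCR. They fell by 18.01 points (-27.5 to -8.53; adjusted p = 0.00390), and the body, with 51 CpGs, fell by 11.9 points (-17.2 to -6.61; adjusted p = 0.000896). Both regions thus moved in the same direction without overlap between the groups' mice at the promoter features. The Foxk1 body fell by 5.59 points with MCR (adjusted p = 0.0147, lost without MCR mouse 85), and its 1st exon was at most 1.02% in every mouse. The bodies of Foxp1 and Foxp2 were not called, with intervals of -3.96 to 3.08 and -5.15 to 6.21 points.

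No Sox region was called higher in any comparison. Sox12, a member of the group that includes Sox4 and Sox11, had the largest loss of any of these promoter regions. Its 11 CpGs (chr2:152393625-152395883, none in an island) all lie in the 1st exon. Control mice had 68.0%, 75.4%, 65.5%, 61.1% and 67.1%, and MCR mice had 42.9%, 45.3% and 40.1%. It fell by 24.6 points (-36.1 to -13.2; adjusted p = 0.00183), with 8 of 11 CpGs called lower. LFCR mice split again into 43.1% and 44.3% against 58.8% and 66.6%, and their fall of 14.2 points (adjusted p = 0.0447) was lost without any 1 of 6 mice (Control 1, 2, 5 and 13, LFCR 63 and 67).

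Its relatives differed in level. The 1st exon of Sox11, a factor of neurons and embryonic mammary cells, was at 7.71% ± 2.38 (n = 4) in Control and fell by 4.19 points with MCR (adjusted p = 0.0382). Sox4 was nearly unmethylated at 0.476% in Control and 1.21% ± 1.47 (n = 3) in MCR. Of the neural factors, Sox1 fell by 3.32 points (adjusted p = 0.0210) and Sox14 fell by 4.70 points (adjusted p = 0.00671). Of the 5 Sox1 CpGs 0 were called singly. Sox2, the pluripotency factor, was at 4.17% ± 1.29 (n = 4) in Control and 2.55% ± 1.04 (n = 3) in MCR, with an interval of -4.26 to 1.01 points, and all its measured CpGs are shared with Sox2ot.

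Sox13, expressed in immune and arterial cells, lost methylation over its body (40 CpGs, chr1:133383944-133423578). Control mice had 57.2%, 60.8%, 56.7%, 54.3% and 55.7%, and MCR mice 44.0%, 42.2% and 42.8%, a fall of 14.0 points (-19.0 to -9.03; adjusted p = 0.000415). The CpG of largest loss in all these genes, at chr1:133409120, went from 68.3% ± 9.85 (n = 5) to 15.9% ± 4.10 (n = 3), and its neighbour at 133409125 from 68.3% ± 7.76 (n = 5) to 18.1% ± 4.40 (n = 3). Its promoter features, which include the 2 unmethylated sites shown above, were at 42.3% ± 3.58 (n = 5) and 40.7% ± 3.09 (n = 3). These 4 CpGs span chr1:133393090-133424330, with Control levels from 0.501% to 85.1%, and are not 1 site. The gap between this mean and the body narrowed (-12.4 points, SE 2.86, adjusted p = 0.00209), but CpGs near 0% in Control cannot fall. With all 25 libraries the body difference was -10.1 points (adjusted p = 0.259).

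Sox18, a driver of lymphatic and blood vessel fate, had a CpG-island body (9 CpGs) with 16.6%, 18.5%, 10.7%, 7.08% and 14.5% in Control and 4.86%, 3.68% and 4.85% in MCR. It fell by 9.02 points (-14.3 to -3.70; adjusted p = 0.00523, and 0.0720 with all 25 libraries). Sox10, the neural crest and mammary progenitor factor, fell by 7.18 points over its body (adjusted p = 0.0185), a call lost without MCR mouse 85 or 96 and with all 25 libraries (adjusted p = 0.0582). Its 1st exon was not called (-4.39 points, -9.25 to 0.471). Sox9, with 4 body CpGs, was at 15.6% ± 6.79 (n = 5) in Control and 18.8% ± 1.23 (n = 3) in MCR and was not called.

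The gains and losses at single CpGs were unevenly spread over the genes. Of the 118 CpGs called higher with MCR, 80 lay in T-box genes (39 in Tbx3, 27 in Tbx5 and 13 in Tbx2) and 19 in Foxf1. Neighbouring CpGs of 1 gene share reads, so these are not independent. In CpG islands 61 of the 460 CpGs of these genes were higher and 67 lower, and over all island CpGs the shares were 3.50% higher and 21.03% lower. In open sea 31 of 294 were higher and 97 lower, against 4.54% and 36.6% of all open-sea CpGs.

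The direction differed by level in Control, a mean that also enters the difference. Among the 8 bodies at 10% to 30% in Control, 4 were called higher and 2 lower with MCR, against 13.9% higher and 40.4% lower among the 503 bodies of that level in the whole table. Among the 10 promoters at that level, 3 were higher and 6 lower, against 10.3% and 46.9% of 563. Between 30% and 70%, 0 of 4 promoters were higher and 2 lower, against 3.97% and 61.6% of 807, and 1 of 13 bodies was higher and 7 lower, against 5.71% and 66.9% of 2241. At 70% or more, all 3 promoters were lower, against 68.2% of all promoters at that level, and 2 of 3 bodies, against 66.2% of all such bodies. Of the 16 promoters under 10%, 0 were called higher and 5 lower, against 2.72% and 13.4% of 956.

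**Figure D4:**
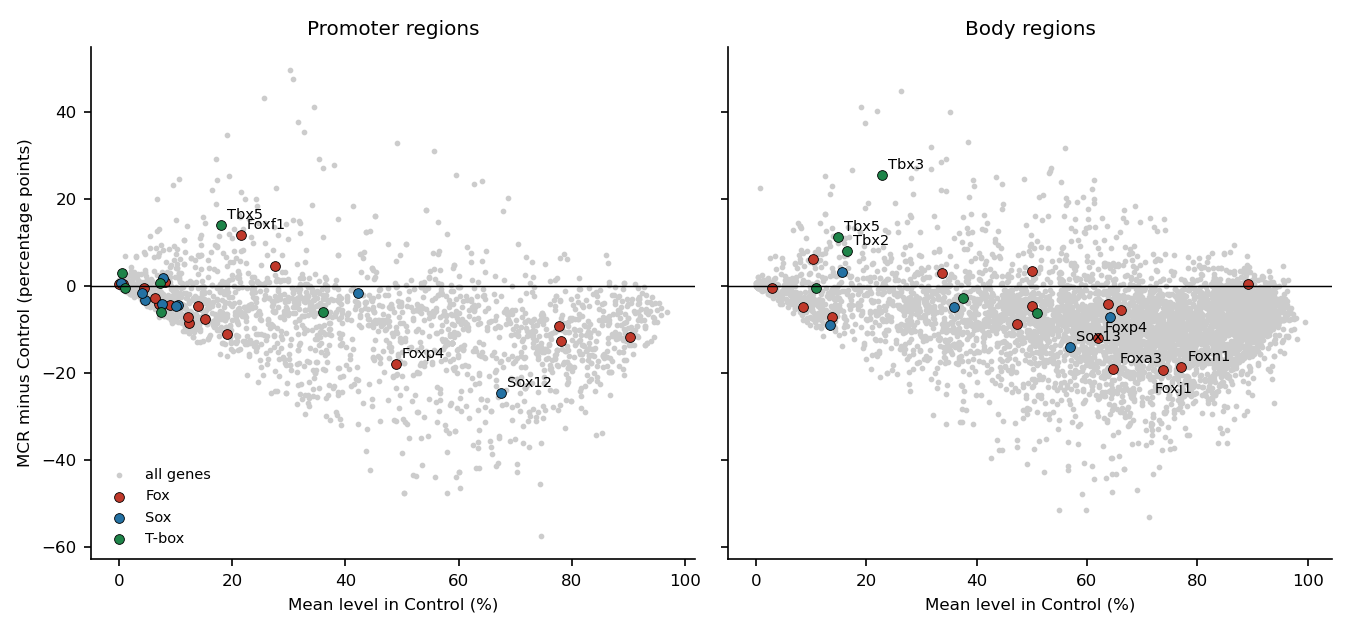
MCR minus Control in percentage points against the mean Control level (%), for promoters (left) and bodies (right) of all genes (grey) and of Fox (red), Sox (blue) and T-box (green) genes. Tbx3, Tbx5 and Tbx2 bodies and the Tbx5 and Foxf1 promoters lie above 0 at Control levels of about 15% to 23%, and the genes labelled in the plot at Control levels above 45% lie below it.

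With LFCR, 2 of the 33 promoters were called higher (Foxf1 and Tbx15) and 10 lower, against 2.08% and 25% of all promoters. Of the 26 bodies 3 were higher (Tbx3, Tbx5 and Tbx2) and 7 lower, against 2.52% and 39.8%, and of the 1051 CpGs 40 were higher and 81 lower, against 1.48% and 12.1%. These calls rest on 2 of the 4 mice: without LFCR mouse 63, or without LFCR mouse 67, 0 promoters, 0 bodies and 0 CpGs of these genes were called, and 0 promoters or bodies in the whole table. Without Control mouse 2 the promoter count was 1 and the CpG count 12, among 241 promoters and 1866 CpGs called in the whole table. Without LFCR mouse 72 the CpG count was 251, among 32639 called in the whole table.

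With LFD and with ICR, 0 promoters, bodies or CpGs of these genes were called, as in 0% of all promoters, bodies and CpGs. At an unadjusted limma p under 0.05, LFD had 2 of 33 promoters higher and 8 lower, against 2.97% and 19.9% of all promoters. It had 1 of 26 bodies higher and 9 lower, against 2.59% and 28.2%, and 36 of 1051 CpGs higher and 123 lower, against 3.17% and 15.7%. At that level ICR had 2 promoters higher and 5 lower, against 2.33% and 13.4%, and 3 bodies higher and 3 lower, against 2.02% and 15.7%. Of the CpGs 50 were higher with ICR and 88 lower, against 2.31% and 10.5%. The ICR bodies that were higher at that level were those of Tbx5 (5.68 points, 1.87 to 9.50; adjusted p = 0.280), Tbx3 (13.7 points, 2.19 to 25.1; adjusted p = 0.280) and Tbx2 (4.62 points, 0.649 to 8.58; adjusted p = 0.280). The LFD regions of smallest p were the Tbx15 promoter (6.62 points, 3.59 to 9.65; adjusted p = 0.0961), the Foxn4 promoter (-14.0 points; adjusted p = 0.133) and the Foxj1 body (-10.8 points; adjusted p = 0.101). With LFD mouse 47 left out, 3 bodies of these genes were called lower, among 749 bodies called in the whole table.

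The direct comparison of MCR with LFCR called 0 of the 33 promoters and 0 of the 26 bodies, as in 0% of all regions. At an unadjusted limma p under 0.05 there were 1 promoter higher and 2 lower, against 1.5% and 8.88% of all promoters, and 1 body higher and 3 lower, against 1.22% and 12.2% of all bodies. The smallest p was at the Foxn4 body (4.65 points higher in MCR, 1.82 to 7.49; adjusted p = 0.313), followed among promoters by Tbx5 (9.51 points, 1.65 to 17.4; adjusted p = 0.456). For the Tbx3 body the means were 48.3% and 43.9%.

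Genes that work with these families, taken from lists, were called lower more often than higher with MCR, as were all genes (43.2% of promoters and 61% of bodies lower). Of the Polycomb and trithorax genes, listed together, 0 of 4 measured promoters were higher and 3 lower with MCR. Of their 11 measured bodies 1 was higher and 8 lower. An example is the promoter of Pcgf2, which went from 29.8% to 7.55%. Of the T-box genes outside the naming rule, 2 of 3 promoters and both bodies fell and 0 rose, the called ones being those of Eomes and T (body of Eomes from 55.9% to 35.3%, of T from 59.4% to 46.7%).

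Of the Groucho, Ctbp and Wnt partner genes, 0 of 7 promoters were higher and 4 lower, and 1 of 8 bodies was higher (Lef1) and 4 lower. Of the genes that signal to FoxO proteins, all 4 measured promoters fell with MCR and also with LFCR, where 25% of all promoters fell and where no promoter in the whole table was called without LFCR mouse 63 or 67. They were Akt1, Irs1, Irs2 and the lymphoid kinase subunit gene Pik3cd, with Pik3cd going from 28.0% to 3.89%. Of their 5 bodies 0 were higher and 3 lower.

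Marker genes of the cells a fat pad can hold changed too, and their part in the results above was not tested. Over all genes, MCR called 43.2% of promoters lower and 4.26% higher, and 61% of bodies lower and 4.19% higher. With MCR, the 3 measured lymphocyte bodies had 2 gains (Ptprcap from 19.0% to 60.0%, Cd79b from 17.4% to 44.0%) and 1 loss, and the 3 promoters 1 gain and 2 losses. The mean over the lymphocyte bodies was 33.7% to 42.3% in Control mice and 53.7% to 63.9% in MCR mice, without overlap. The mean over the lymphocyte promoters moved the other way, from 39.0% to 47.6% across Control mice to 32.7% to 35.6% across MCR mice, also without overlap. The only measured macrophage body, that of Spi1, rose from 59.3% to 79.7%. All 4 endothelial bodies fell, with a list mean of 63.7% to 73.0% in Control and 47.8% to 49.4% in MCR, and of 5 endothelial promoters 1 rose and 2 fell. Of luminal epithelial genes 4 of 5 promoters fell and 0 rose, with a list mean of 34.2% to 45.2% in Control and 20.6% to 22.1% in MCR, and 2 of 6 bodies rose and 1 fell. Of 3 adipocyte bodies 2 fell and 0 rose, and its 1 promoter (Cebpa) was at 1.99% in Control and was not called. Skeletal muscle genes had 1 gain and 2 losses at 3 promoters and 3 losses at 4 bodies, 1 of 2 fibroblast bodies fell, and the 1 basal epithelial promoter (Oxtr) was not called.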

How the data were processed

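RRBS levels of 25 mouse mammary fat pads were read from a table the authors deposited, which gives a fraction of methylated reads (0 to 1) per CpG and library, with an average coverage signal over 21 libraries and no read counts. The percent values per group in the deposited table, differences, p-values and q-values were not used. Per the submitters' processing notes, reads were processed with Bismark on mm10; versions and filters were not given in the sources used here. Libraries were matched to mice by title.

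Levels are printed in percent. CpGs needed an average coverage of at least 10 reads and a value in at least 3 mice of each group of that size. A region is the mean of at least 3 CpG means plus the mouse's mean deviation over the CpGs it has (at least 0.5 of them). Groups were compared by limma on the level, 1 term per group with moderated variance, two-sided, Benjamini-Hochberg adjusted over all promoters, bodies or CpGs, called under 0.05, with 95% intervals. The fit was tested on simulated data. Regions were named by a rule: the called ones of largest difference (up to 8 per direction), those of smallest p where fewer than 4 were called, and genes of known role. Others are described outside this rule, among them the called promoters of Foxb1, Foxd2, Foxl1, Sox1 and Sox11. Whether these calls hold when 1 mouse is left out is not given here. The genes, lists and libraries set aside were chosen with earlier results of these data known. The body-minus-promoter comparison was added after values were seen. Alternatives were coverage minimums of 5 and 20 reads, an arcsine square root scale, all 25 libraries, other region sizes, a plain mean, promoters without the 1st exon and leaving out each mouse. Some genes counted in the totals are not reported here by name or in the outlier test. Software was R 4.3.3 with limma 3.58.1 and version 1.17.8 of data.table.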

Additional observations from a re-analysis of the deposited data

Results flagged for a closer look

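In 129 groups of 4 or 5 mice, 10 end values lay far from the other mice by Dixon's test; chance flags about 1 in 20 groups. At promoters these were Tbx18 in Control mouse 5 (3.74%, next value 8.21%), Tbx3 in LFCR mouse 63 (10.1%, next 7.24%), and Foxk1 in Control mouse 13 (0.301%) and LFCR mouse 69 (0.291%), both near 0. At bodies they were Foxa3 in ICR mouse 103 (51.4%, next 58.2%), Foxn1 in Control mouse 2 (83.6%, next 76.3%) and ICR mouse 112 (75.6%, next 70.8%), Foxa2 in Control mouse 10 (12.0%, next 14.1%), Foxo1 in Control mouse 2 (13.8%, next 7.46%) and Foxp1 in ICR mouse 105 (10.2%, next 4.95%).

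The 4 libraries set aside held high levels at regions of low level in Control. At the promoters of these genes with a Control mean under 10% (at most 9.12%), their median was 50.1% in Obese mouse 27, 49.8% in Obese mouse 28, 48.2% in Obese mouse 40 and 48.7% in LFD mouse 46. Only 2 bodies were under 10% (at most 8.60%), and their median was 36.7%, 52.4%, 45.8% and 46.2% in the same order, so it rests on very few regions.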

How the results depend on the processing

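No paired analysis was possible because mouse numbers are unique and the groups share none. With all 25 libraries in the fit, MCR called 3 promoters, 6 bodies and 139 CpGs of these genes, and LFCR 0, 3 and 14, out of 26, 22 and 613 tested. In the whole table MCR then called 363 promoters, 1694 bodies and 21576 CpGs, and LFCR 0, 306 and 2316. The numbers tested in the whole table in that setting are not given here. On the arcsine square root scale LFCR called 7 promoters, among 661 called in the whole table. With at least 10 CpGs per region MCR called 11 of 13 promoters, among 508 called in the whole table. The number of promoters tested in the whole table in that setting is not given here, so 11 of 13 has no background share beside it. Without the 1st exon 3 promoters were left, of which MCR called 1 and LFCR 0, among 340 and 212 called in the whole table. Leaving out 1 mouse gave, for MCR, 17 to 20 promoters, 14 to 17 bodies and 272 to 402 CpGs, and for LFCR 0 to 15, 0 to 14 and 0 to 251. For LFD it gave 0 to 3 bodies. Whole-table counts are not given here for most of these refits. Promoters and CpGs with LFD, all regions with ICR and those of MCR against LFCR stayed at 0. The Foxn4 body with MCR turned to -4.01 points with all 25 libraries and to -1.76 with all CpGs whatever the number of mice, a setting chosen after seeing the data. A change of sign was counted only where the value had been called. The causes were not tested. Coverage minimums of 5 and 20 reads changed no call of a region named by the stated rule. Without read counts, the precision of single levels is unknown, and with 3 MCR mice small differences may go uncalled.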
